A study of Mus musculus with 13 samples.

Results

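The levels of 10 genes were followed across 13 RNA-seq libraries of mouse medulloblastoma. These were Trp53, which encodes p53, and 9 genes that p53 is known to switch on: Btg2, Cdkn1a, Mdm2, Ccng1, Bax, Bbc3, Zmat3, Phlda3 and Sesn2. The members were chosen by name and taken as the rows with these symbols, 10 of 53653 genes in the count table, and all 10 were among the 22265 genes with enough counts to be tested. All tumours carried SmoM2, a mutant Smoothened that keeps the Sonic Hedgehog pathway on, and GFP-positive cells labelled granule cell precursors were sorted from them after papain dissociation. Control primary tumours came from the cerebellum of SmoM2 mice aged 6 to 16 weeks (5 libraries, replicates 3 to 7). KO primary tumours came from the cerebellum of SmoM2-Kmt2dCf/Cf mice aged 5 to 8 weeks, in which Kmt2d, a gene for a histone H3 lysine 4 methyltransferase, was knocked out (4 libraries, replicates 3, 4, 6 and 7). KO metastases came from the spinal cord of mice of that same genotype and age range (4 libraries, replicates 3, 4, 6 and 7). No control metastases were compared, and which promoter drives Cre was not known from the sources used here. Whether 2 libraries share a mouse is not labelled, so p-values measure only the spread between these libraries, which may be technical.

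The p53 protein is kept at a low level by MDM2, the ubiquitin ligase that marks it for degradation. When DNA is damaged or oncogenes are active, p53 is stabilised, binds its sites in DNA and switches on genes that arrest the cell cycle, repair damage or trigger apoptosis. Because MDM2 is itself a p53 target, the circuit limits its own output. In cerebellar granule cell precursors p53 is known as a barrier to medulloblastoma. Btg2, also called PC3 or Tis21, is an antiproliferative gene known in this lineage for promoting exit from the cell cycle and differentiation, and it is also an early response gene.

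Promoter sequences are shown for Btg2, the member whose difference passed the test below, and for Cdkn1a and Bax, the members with a full p53 site in a promoter window. Each is the 250 bases before a RefSeq transcription start, read 5′ to 3′ on the gene's own strand. The assembly is GRCm38.p6, and the windows are chr1:134079156-134079405 on the minus strand for Btg2, chr17:29090729-29090978 on the plus strand for Cdkn1a and chr7:45466899-45467148 on the minus strand for Bax. Capitals mark the decamers of p53 sites.
Btg2: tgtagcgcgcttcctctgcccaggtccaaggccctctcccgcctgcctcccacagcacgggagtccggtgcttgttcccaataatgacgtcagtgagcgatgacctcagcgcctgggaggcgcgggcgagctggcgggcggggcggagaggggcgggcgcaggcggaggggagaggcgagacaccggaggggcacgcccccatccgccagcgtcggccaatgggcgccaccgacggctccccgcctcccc
Cdkn1a: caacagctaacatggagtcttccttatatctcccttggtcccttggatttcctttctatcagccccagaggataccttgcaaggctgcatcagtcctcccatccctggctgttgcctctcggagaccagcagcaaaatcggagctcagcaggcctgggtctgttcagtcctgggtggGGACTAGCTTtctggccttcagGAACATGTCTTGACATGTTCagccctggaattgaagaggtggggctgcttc
Bax: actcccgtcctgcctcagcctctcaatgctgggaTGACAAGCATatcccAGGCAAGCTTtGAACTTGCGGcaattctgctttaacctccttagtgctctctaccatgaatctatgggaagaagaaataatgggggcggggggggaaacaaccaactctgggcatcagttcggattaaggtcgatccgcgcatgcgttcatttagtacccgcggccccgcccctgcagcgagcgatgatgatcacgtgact
The search used the p53 consensus half-site, a decamer that is its own reverse complement, so that 1 search covers both strands. A full site was 2 decamers with 0 to 13 bases between them, with the central 4 bases of each kept and at most 2 mismatches elsewhere in all. In the Cdkn1a window shown, the exact half-sites GGACTAGCTT and GAACATGTCT began 73 and 51 bases before the start. They had a spacer of 12 bases and 0 mismatches, and the second was also followed directly by a decamer with 1 mismatch. Another RefSeq start of Cdkn1a has the window chr17:29093519-29093768, which held no half-site and no full site. In Bax, the exact half-site AGGCAAGCTT began 201 bases before the start and had a decamer on either side, each pair with 2 mismatches. Exact half-sites were also present in the windows of Trp53 (GGACTTGCCC), Mdm2 (GAACTTGCCT) and Ccng1 (GGGCAAGCCT). The windows of Btg2, Bbc3, Phlda3 and Sesn2 held none, which says only that these letters were not in these windows. Of 27025 genes in the promoter table, 8.20% had an exact half-site in a window and 2.06% a full site. Zmat3 had no entry in that table, so 9 of 10 members were searched. These matches are descriptions of sequence and not evidence of binding.

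Total counts ran from 23.5 to 37.5 M in control primary tumours, from 35.2 to 41.4 M in KO primary tumours and from 27.1 to 40.8 M in KO metastases, and the members drew between 349 and 13916 counts per library. Levels below are CPM, that is, counts divided by a library total scaled by the trimmed mean of M values (TMM). Counts of Kmt2d ran from 78.1 to 175 CPM in control primary tumours, 91.7 to 168 CPM in KO primary tumours and 105 to 131 CPM in KO metastases, which overlap, and counts over the whole gene need not show the loss of part of it. The 10 granule precursor markers (Atoh1, Barhl1, Zic1, Gli1, Ptch1 and others) summed to 3271 to 4269 CPM in control primary tumours. They summed to 4306 to 4937 CPM in KO primary tumours and 4290 to 6327 CPM in KO metastases, so every KO library was above every control. None of the markers was at 0 throughout a group. Several libraries stood apart. Genes for olfactory and vomeronasal receptors, which cerebellar cells are not known to use, drew 1752 CPM of unscaled totals in control primary 3, between 349 and 723 CPM in KO primary 7, KO metastasis 6 and KO metastasis 7, and between 6.08 and 83.5 CPM in the others. The first 4 are the libraries of highest receptor counts named below. Without them, KO metastasis 3 and KO metastasis 4 are the only metastases left. Mitochondrially encoded genes took 2.06% of counts in KO metastasis 3 and between 0.633% and 0.876% in the other 12. Control primary 5, 6 and 7 held 324 to 509.5 CPM of Xist, against no more than 1.02 CPM elsewhere, so the KO libraries, all without it, were set against controls of both kinds.

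Trp53, the transcription factor gene (chr11, 69580359 to 69591873, plus strand), was read at 295, 257, 279.7, 298 and 273 CPM in control primary replicates 3 to 7. Its levels in KO primary tumours were 345, 346, 332 and 269 CPM and those in KO metastases 499.7, 348, 294 and 302 CPM, for replicates 3, 4, 6 and 7 in each. The groups overlapped in every comparison, and KO metastasis 3 was the highest of the 13 libraries. Neither KO group passed the test against control, with a log2 difference of 0.20 (SE 0.153, edgeR adjusted p = 0.696) for KO primary tumours and of 0.36 (SE 0.153, edgeR adjusted p = 0.283) for KO metastases. Without KO metastasis 3 the latter was 0.17 (adjusted p = 0.940). Without the 4 libraries of highest receptor counts, a set chosen after the data were seen, it was 0.63 (adjusted p = 0.0425). That fit kept only KO metastasis 3, the highest library, and KO metastasis 4 as metastases. The processed pseudogene Trp53-ps lies on chromosome 17 and can draw reads from the same sequence.

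Btg2 (chr1, 134075170 to 134079120, minus strand) was lower in KO primary tumours than in controls. Its levels were 139, 113, 192, 124 and 173 CPM in control primary replicates 3 to 7 (mean 148 ± 33.6 CPM, SD, n = 5). In KO primary replicates 3, 4, 6 and 7 they were 67.4, 85.3, 82.0 and 51.1 CPM (71.4 ± 15.7 CPM, n = 4). Every KO primary library lay below every control library. Btg2 therefore fell by 1.05 on the log2 scale (SE 0.221, 95% interval -1.53 to -0.58, edgeR adjusted p = 0.0196), 2.08-fold with an interval of 1.49 to 2.88. Earlier results of these data had already shown this difference, so the test repeats it and adds no independent support. In bulk samples, fewer cells of a type that uses Btg2 and less Btg2 RNA per cell cannot be told apart.

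In KO metastases, Btg2 was at 143, 167, 99.5 and 98.1 CPM in replicates 3, 4, 6 and 7 (127 ± 34.1 CPM, n = 4). Each metastasis was above each KO primary tumour, and the metastases overlapped with the controls. The log2 difference from KO primary tumours was 0.83 (SE 0.229, 95% interval 0.34 to 1.32, unadjusted p = 0.00284), which did not pass over all genes (edgeR adjusted p = 1.00). Against control primary tumours it was -0.22 (SE 0.216, 95% interval -0.69 to 0.24, edgeR adjusted p = 0.796). These 3 comparisons share libraries, and the values are therefore given side by side and not as separate lines of evidence.

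The Btg2 call between primary tumours was close to the threshold and depended on the libraries used. Leaving out control primary 5, control primary 7, KO primary 3 or KO primary 6 gave edgeR adjusted p-values of 0.0509, 0.0589, 0.0751 and 0.0512. Without the 3 controls with Xist counts the log2 difference was -0.74 (adjusted p = 0.545), with the remaining controls at 113 and 139 CPM, still above every KO primary tumour. Without the 4 libraries of highest receptor counts it was -0.93 (adjusted p = 0.0185).

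**Figure D1:**
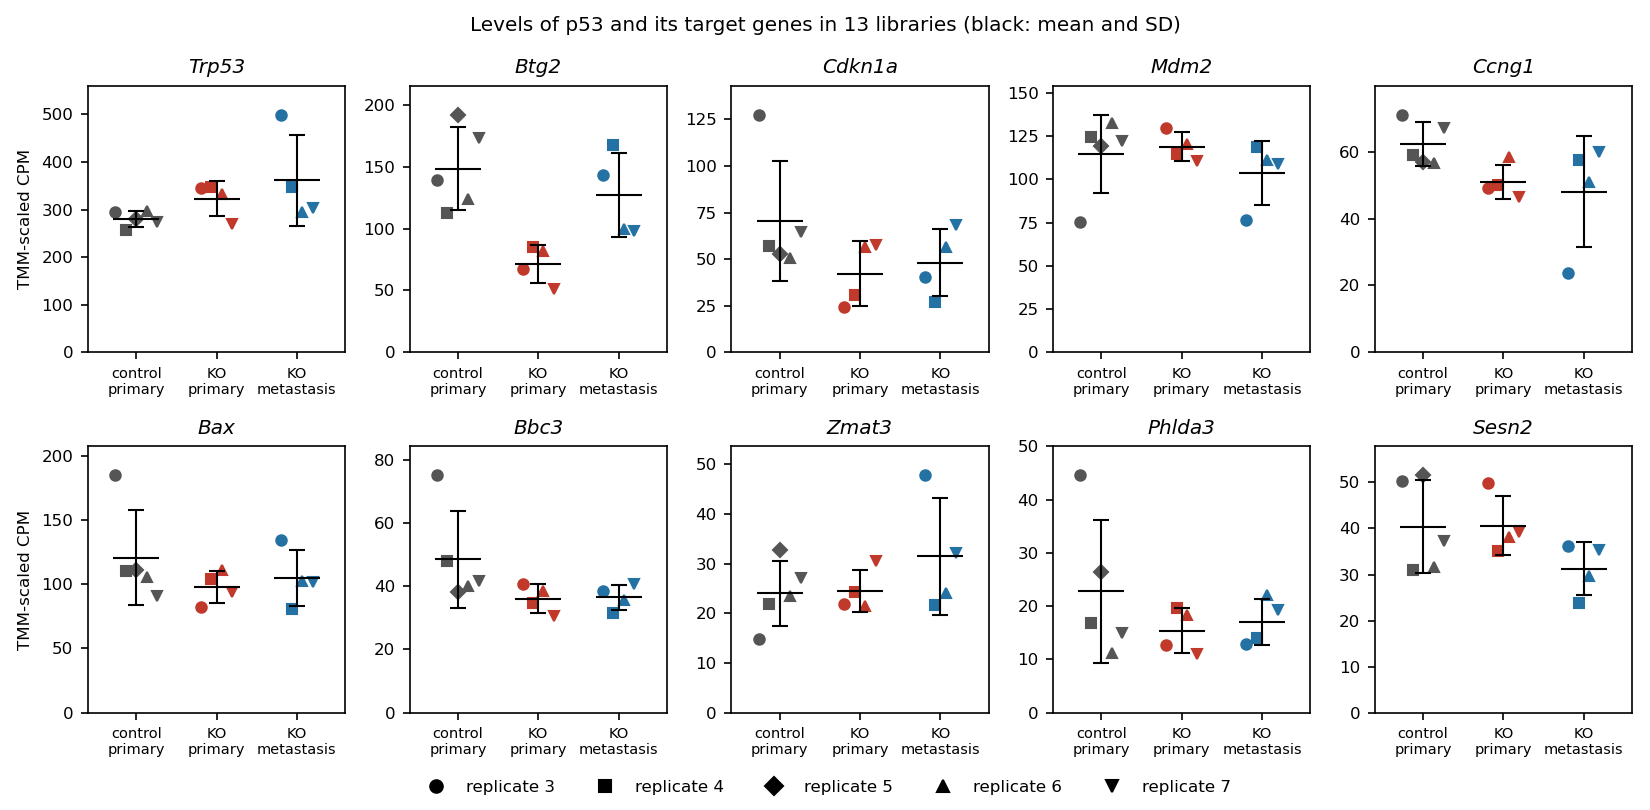
TMM-scaled CPM (vertical axes, from 0) of the 10 genes in control primary tumours (grey, 5 libraries), KO primary tumours (red, 4) and KO metastases (blue, 4). Marker shape gives the replicate number, and black lines the mean and SD. The 4 KO primary values of Btg2, 51.1 to 85.3 CPM, lie below all values of the other groups, while the remaining genes overlap between groups and control primary 3 is far above the other controls for Cdkn1a, Bax and Bbc3.

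Other readouts also differed between the groups. Of 18 genes of early granule neuron differentiation, 10 fell in KO primary tumours and 0 rose (edgeR), led by the RNA-binding protein gene Elavl4 (79.1 ± 6.52 CPM against 178 ± 23.2 CPM, log2 difference -1.17, SE 0.134, adjusted p = 4.57e-04), the neuronal tubulin gene Tubb3 (-1.70), the transcription factor gene Neurod1 (-1.81) and the stathmin gene Stmn2 (-1.53). The median log2 difference of the list was -0.96, against -0.05 over all genes tested. Of all genes tested, 2.93% were called between primary tumours and 3.08% between KO metastases and control. Between KO metastases and KO primary tumours 50.4% of all genes were lower in metastases. In KO metastases 16 of the 18 were above KO primary tumours (median 0.28), with 0 calls by edgeR, 4 unadjusted p-values below 0.05, 1 call by DESeq2 and 0 by limma voom. Against control primary tumours 7 were lower and 1, the neuritin gene Nrn1, was higher. Their summed level was 4467 to 6636 CPM in control primary tumours, 2852 to 3093 CPM in KO primary tumours and 3108 to 5014 CPM in KO metastases.

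Immediate early genes, which respond within minutes to growth factors, activity or tissue handling, showed another order of the groups. Their summed level was 1015 to 1894 CPM in control primary tumours, 1199 to 3283 CPM in KO primary tumours and 2963 to 4083 CPM in KO metastases. Of the 20 genes, Egr3, a zinc finger transcription factor gene, rose in KO primary tumours (24.2 ± 7.89 CPM against 1.41 ± 1.89 CPM, edgeR adjusted p = 0.0160), and 11 rose in KO metastases against control primary tumours, led by Klf6 (log2 difference 0.97), Fos (3.26), Egr1 (2.29) and Egr2 (1.84). Between KO metastases and KO primary tumours 19 of the 20 were higher in metastases (median 0.73). There were 0 calls by edgeR, DESeq2 or limma voom and 9 unadjusted edgeR p-values below 0.05. Over all genes tested, 50.4% were lower in that comparison and 720 of 22265 had an unadjusted edgeR p below 0.05. Calls took 2.93% of all genes between primary tumours and 3.08% between KO metastases and control. The 10 oligodendrocyte markers summed to 145 to 405 CPM in control primary tumours, 69.9 to 100.2 CPM in KO primary tumours, with Opalin at 0 in all 4, and 173 to 1971 CPM in KO metastases. The microglia and macrophage markers (13 genes, none at 0 throughout a group) summed to 11.7 to 85.4, 5.02 to 19.4 and 14.7 to 251 CPM in the same order of groups. The part of each of these lists in the Btg2 difference was not tested.

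Among the cell cycle members, Cdkn1a encodes p21, the inhibitor of cyclin-dependent kinases through which p53 arrests the cell cycle (chr17, 29090976 to 29100727, plus strand). Its level was 128 CPM in control primary 3 and 57.0, 52.8, 50.5 and 64.4 CPM in control primary replicates 4 to 7. KO primary replicates 3, 4, 6 and 7 were at 24.2, 30.6, 56.4 and 57.8 CPM and KO metastases of the same numbers at 40.5, 27.2, 56.7 and 68.2 CPM. Control primary 3 was far above every other library, and the KO libraries overlapped with the remaining controls. The log2 difference from control was -0.74 in KO primary tumours (SE 0.355, 95% interval -1.50 to 0.03, edgeR adjusted p = 0.393) and -0.55 in KO metastases (SE 0.354, adjusted p = 0.580). Without control primary 3 these were -0.41 and -0.21.

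Among the KO libraries, those with more receptor counts held more Cdkn1a. The 4 KO libraries above 80 CPM of receptor genes, a limit chosen after the values were seen (KO primary 6, at 83.5 CPM, KO primary 7, KO metastasis 6 and KO metastasis 7), held 56.4 to 68.2 CPM of Cdkn1a, and the other 4 (replicates 3 and 4 of both groups) held 24.2 to 40.5 CPM. The same split divides replicates 6 and 7 from replicates 3 and 4 in both KO groups. Receptor counts and replicate number therefore cannot be told apart among the KO libraries. Control primary 3, the highest in receptor counts, was also the highest in Cdkn1a. The other 4 controls had 11.9 to 19.5 CPM of receptor genes and 50.5 to 64.4 CPM of Cdkn1a, so their Cdkn1a was near that of the KO libraries with more receptor counts. The part of the receptor counts in the Cdkn1a level was not tested, and a non-coding gene on the opposite strand, AC167363.2, shares 273 exon bases with Cdkn1a, so that reads there cannot be told apart without strand.

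**Figure D2:**
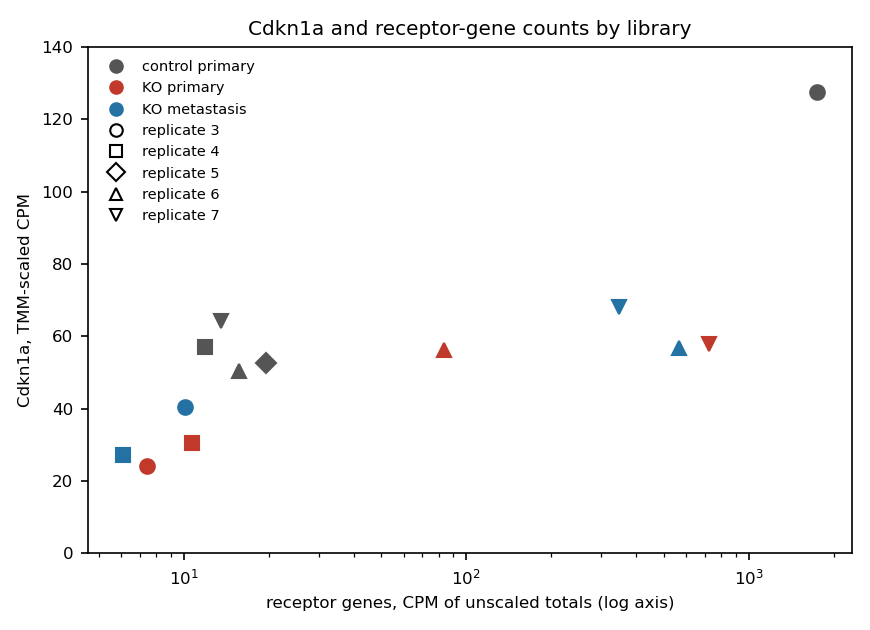
Cdkn1a (vertical axis, TMM-scaled CPM) against olfactory and vomeronasal receptor genes (horizontal axis, CPM of unscaled totals, log axis) in each of the 13 libraries; colour gives the group and shape the replicate. The KO libraries fall into 4 with 24.2 to 40.5 CPM of Cdkn1a and few receptor counts and 4 with 56.4 to 68.2 CPM and more. The first 4 are replicates 3 and 4 of both KO groups and the others replicates 6 and 7. Control primary 3 lies at the top right.

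Ccng1, the cyclin G1 gene, recruits a phosphatase that acts on MDM2 (chr11, 40748552 to 40755311, minus strand). It was at 71.2, 59.1, 56.8, 56.8 and 67.2 CPM in control primary tumours, at 49.1, 50.0, 58.3 and 46.4 CPM in KO primary tumours and at 23.8, 57.5, 51.1 and 60.0 CPM in KO metastases. KO metastasis 3 lay below the other 12 libraries, which were between 46.4 and 71.2 CPM, and the groups overlapped. Differences from control of -0.29 in KO primary tumours and of -0.37 in KO metastases (log2, SE 0.216 for both) did not pass the test, and without KO metastasis 3 the latter was -0.14.

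Mdm2, the negative regulator of p53 (chr10, 117688875 to 117710758, minus strand), was at 75.2, 125, 119, 133 and 122 CPM in control primary tumours, 130.0, 114, 121 and 111 CPM in KO primary tumours and 76.4, 119, 111 and 109 CPM in KO metastases. The replicate 3 libraries of the control and the metastasis group were low, and the other 11 lay between 109 and 133 CPM. Its log2 difference between primary tumours was 0.05 with a 95% interval of -0.31 to 0.41 (edgeR adjusted p = 0.974), and its sign turned with unscaled totals and without control primary 3. A p-value of this size does not show that the level was equal, only that differences beyond that interval were not measured.

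Of the apoptosis members, Bax encodes the protein that permeabilises the outer mitochondrial membrane (chr7, 45461697 to 45466898, minus strand). Control primary 3 was at 185 CPM and the other controls at 110.4, 111, 105 and 90.9 CPM. KO primary tumours were at 82.5, 104, 111 and 93.6 CPM and KO metastases at 134, 80.4, 103 and 102 CPM, overlapping with controls. The log2 difference between primary tumours was -0.30 (SE 0.205, edgeR adjusted p = 0.639) and moved to -0.09 without control primary 3. An annotated gene on the same strand, Gm45808, shares 192 exon bases with Bax and is no row of the count table.

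Bbc3 encodes PUMA, which frees BAX from its BCL2-family inhibitors (chr7, 16308393 to 16318205, plus strand). Its levels were 75.3, 47.9, 38.1, 40.0 and 41.8 CPM in control primary tumours, 40.7, 34.7, 38.6 and 30.5 CPM in KO primary tumours and 38.6, 31.5, 35.6 and 40.6 CPM in KO metastases. All 8 KO libraries were between 30.5 and 40.7 CPM, within which the 2 lowest controls also lay. The log2 difference between primary tumours was -0.43 (SE 0.194, unadjusted p = 0.0446, edgeR adjusted p = 0.347). Without control primary 3 it was -0.21, and without the 4 libraries of highest receptor counts -0.13.

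Phlda3, a p53-induced inhibitor of AKT signalling (chr1, 135766119 to 135769136, plus strand), had the widest spread among controls relative to its mean (22.8 ± 13.4 CPM). It was at 44.6, 16.9, 26.4, 11.2 and 14.9 CPM in control primary tumours, 12.7, 19.6, 18.3 and 10.9 CPM in KO primary tumours and 12.8, 14.0, 22.1 and 19.2 CPM in KO metastases. Both KO groups lay within the range of the controls, except that KO primary 7 was just below it. Its log2 difference of -0.57 between primary tumours (SE 0.358, edgeR adjusted p = 0.586) was -0.17 without control primary 3.

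Zmat3, an RNA-binding p53 target that alters splicing (chr3, 32334792 to 32366014, minus strand), was at 14.9, 21.9, 32.6, 23.4 and 27.1 CPM in control primary tumours. KO primary tumours were at 21.8, 24.3, 21.5 and 30.6 CPM and KO metastases at 47.9, 21.6, 24.1 and 32.2 CPM. Control primary 3 was the lowest library and KO metastasis 3 the highest. The log2 difference between primary tumours was 0.03 (SE 0.255), with a sign that turned with unscaled totals and without control primary 3, and that of metastases from control 0.39 (SE 0.254, edgeR adjusted p = 0.585), or 0.11 without KO metastasis 3.

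Sesn2, a stress-induced inhibitor of mTORC1 signalling (chr4, 132492032 to 132510501, minus strand), was at 50.4, 31.0, 51.7, 31.5 and 37.4 CPM in control primary tumours, 49.9, 35.2, 38.2 and 39.2 CPM in KO primary tumours and 36.3, 23.8, 29.8 and 35.3 CPM in KO metastases. The KO primary values lay within the range of the controls, and the metastases, with the lowest library of all, overlapped with both. The log2 difference was 0.01 between primary tumours (95% interval -0.41 to 0.43, with a sign that turned with RLE, DESeq2 and unscaled size factors) and -0.38 between KO metastases and KO primary tumours (SE 0.205, unadjusted p = 0.0881, edgeR adjusted p = 1.00).

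Across the 10 members, 1 (Btg2) passed the test between KO and control primary tumours, where 2.93% of all genes tested were called (257 higher and 396 lower). None passed between KO metastases and KO primary tumours, where 0.00449% of genes were called, which is 1 gene, the myelin gene Mbp, or between KO metastases and control primary tumours, where 3.08% were called. At an unadjusted edgeR p below 0.05 there were 2, 1 and 1 members, and 3020, 720 and 3170 of all genes. DESeq2 and limma voom each called 1, 0 and 0 members. Libraries did not overlap between the groups for 1, 1 and 0 members, each time Btg2, against 7.42%, 1.72% and 6.82% of all genes. The median log2 difference of the members was -0.29, 0.12 and -0.30 and that of all genes -0.05, -0.00 and -0.04. In the comparison of primary tumours 6 of 10 members were lower in KO, against 54.4% of all genes. Between KO metastases and KO primary tumours 3 of 10 were lower in metastases, against 50.4% of all genes. Between KO metastases and control primary tumours 8 of 10 were lower in metastases, against 53.4%.

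**Figure D3:**
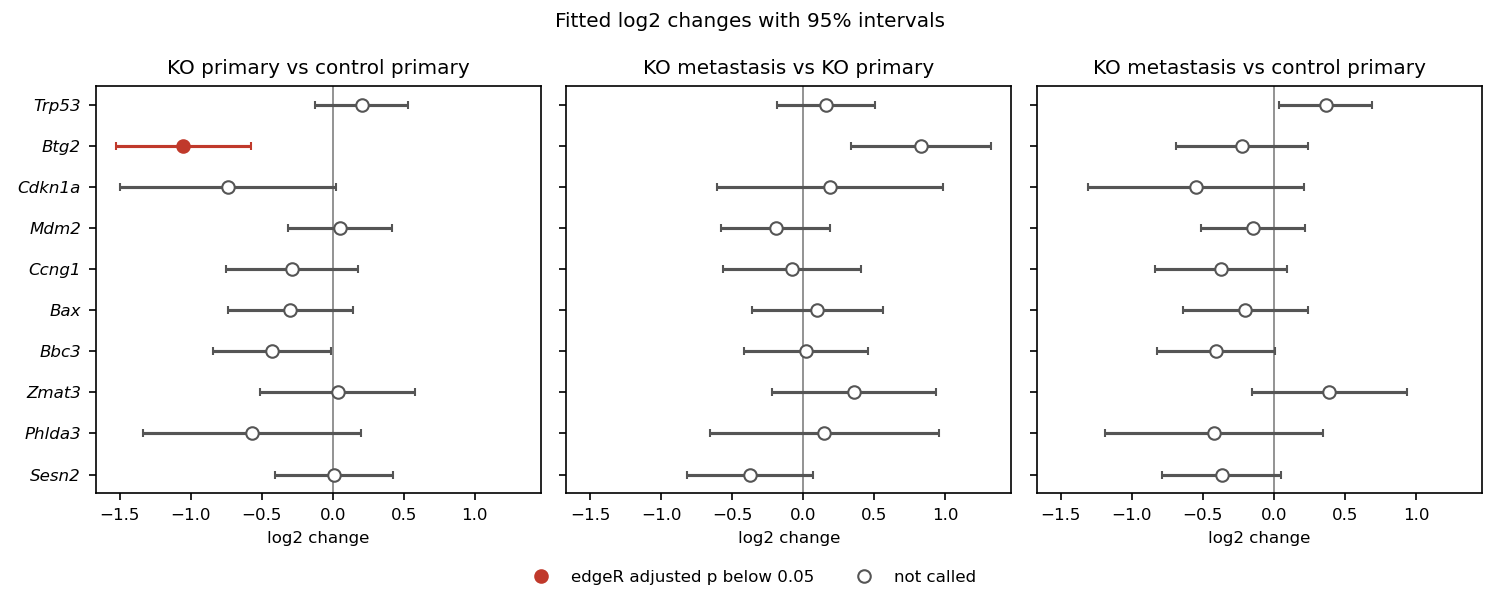
Fitted log2 difference of each gene (points) with its 95% interval (bars) in the 3 comparisons; red marks an edgeR adjusted p below 0.05. Only the interval of Btg2 in the comparison of primary tumours belongs to a call, and most other intervals span 0.

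Per kilobase of annotated exons, Bax (76.5 ± 23.5 CPM per kb) and Trp53 (69.4 ± 4.10 CPM per kb) were the most abundant members in control primary tumours, followed by Btg2 at 54.0 ± 12.2 CPM per kb. Bbc3, Mdm2, Cdkn1a, Ccng1, Phlda3 and Sesn2 were between 11.6 and 22.9 CPM per kb, with spreads that overlapped between neighbours, and Zmat3 was lowest at 2.10 ± 0.575 CPM per kb. In KO primary tumours Trp53 (79.9 ± 9.06 CPM per kb) and Bax (62.2 ± 8.00 CPM per kb) led, and Btg2, at 26.0 ± 5.71 CPM per kb, lay beside Mdm2 at 23.4 ± 1.67 CPM per kb. In KO metastases Btg2 again followed Trp53 and Bax, at 46.3 ± 12.4 CPM per kb.

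Single libraries shaped several members at once. Control primary 3 was the highest of the 13 libraries in Cdkn1a, Ccng1, Bax, Bbc3 and Phlda3 and the lowest in Mdm2 and Zmat3. It was the highest library for 24.8% and the lowest for 18.4% of all genes tested. KO metastasis 3 was the highest in Trp53 and Zmat3 and the lowest in Ccng1. Of 46 other p53 targets tested, 15 (32.6%) were lowest in KO metastasis 3, against 15.3% of all genes tested. Among them, chosen after their values were seen, were Sesn1, a sestrin like Sesn2 (39.9 CPM, other libraries 66.8 to 115 CPM), Trp53inp1, a p53-induced nuclear protein gene (34.3 CPM, others 61.6 to 143 CPM), the BH3-only gene Pmaip1, or Noxa (0.862 CPM, others 2.31 to 7.83 CPM), and the exonuclease gene Aen (26.6 CPM, others 36.9 to 65.4 CPM). Ppm1d, a p53-induced phosphatase gene, was at 40.1 CPM there and at 57.1 to 103 CPM in the others. This library was also the one with 2.06% of counts on mitochondrial genes, and the part of that in these levels was not tested.

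**Figure D4:**
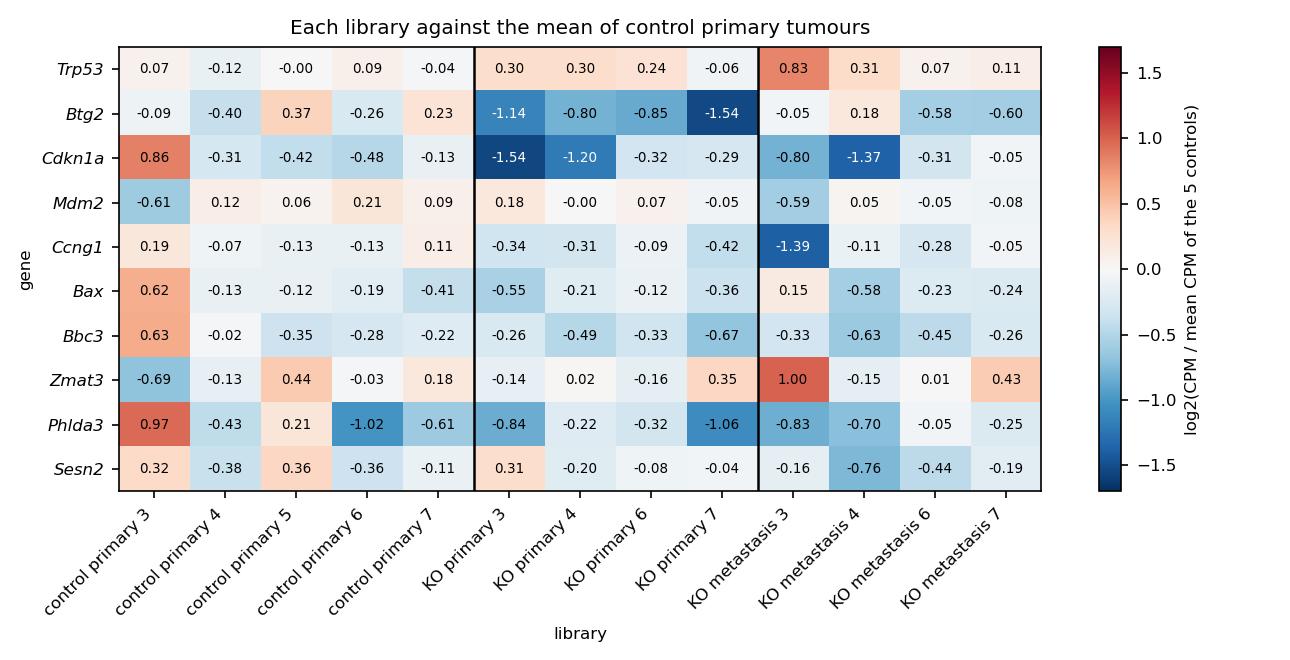
Log2 ratio of each library's CPM to the mean of the 5 control primary tumours, for the 10 genes (rows) in the 13 libraries (columns), with red for higher and blue for lower values. Btg2 is blue in all 4 KO primary tumours (-0.80 to -1.54), and control primary 3 and KO metastasis 3 differ from their groups in several rows.

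The wider p53 pathway was read from lists chosen with earlier results of these data known. Of 50 other p53 targets 46 were tested, and 1 passed the test in each KO group against control. Of all genes tested, 2.93% were called in KO primary tumours and 3.08% in KO metastases against control. The same target passed in both, Plk3, a polo-like kinase gene of the stress response. Its level was 49.4 ± 10.01 CPM in control primary tumours, 11.01 ± 2.70 CPM in KO primary tumours and 14.1 ± 1.47 CPM in KO metastases, with no overlap between control and KO libraries. Plk3 thus fell by 2.17 on the log2 scale in KO primary tumours (SE 0.202, edgeR adjusted p = 1.26e-04) and fell by 1.81 in KO metastases (SE 0.198, adjusted p = 3.55e-04), and it passed under all 23 alternatives of each comparison. The median log2 difference of the 46 was -0.04 between primary tumours, -0.17 between KO metastases and KO primary tumours and -0.30 between KO metastases and control, against -0.05, -0.00 and -0.04 over all genes. Of the 46, 24, 32 and 33 were negative in these comparisons. Over all genes tested, the negative shares were 54.4%, 50.4% and 53.4%. The metastases include KO metastasis 3, the lowest of all libraries for 15 of the 46.

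Several other targets were near the threshold, named here after their values were seen. Ephx1, a microsomal epoxide hydrolase gene, had 5.26 ± 2.24 CPM in control primary tumours and 1.40 ± 0.443 CPM in KO primary tumours (edgeR adjusted p = 0.0546). Eda2r, a death receptor gene of the TNF receptor family, was at 56.4 ± 9.09 and 34.3 ± 8.42 CPM (adjusted p = 0.0609), and Gadd45a, a growth arrest gene, at 22.3 ± 8.22 and 12.1 ± 2.68 CPM (adjusted p = 0.0949). Between KO metastases and KO primary tumours 0 other targets passed with edgeR, DESeq2 or limma voom, and 4 had an unadjusted edgeR p below 0.05. The smallest p-values were those of the phosphatase gene Ptp4a3 (log2 difference -0.998, SE 0.352) and the non-coding RNA gene Pvt1 (-0.60, SE 0.214), both with an edgeR adjusted p of 1.00. The number of other targets that passed between primary tumours was 3 without control primary 3, 3 without the 4 libraries of highest receptor counts, 2 without KO primary 3, KO primary 7, KO metastasis 3 or KO metastasis 6, 5 with DESeq2 and 16 with limma voom. For KO metastases against control it was 3 without control primary 3, 4 with DESeq2 and 11 with limma voom. Calls over all genes, 653 between primary tumours in the main fit, numbered 1648 with DESeq2 and 3267 with limma voom. They numbered 1032 without control primary 3 and 1427 without the 4 libraries of highest receptor counts. Without KO primary 3, KO primary 7, KO metastasis 3 or KO metastasis 6 they numbered 340, 811, 670 and 551. For KO metastases against control they were 685 in the main fit, 1199 without control primary 3, 1671 with DESeq2 and 3822 with limma voom.

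**Figure D5:**
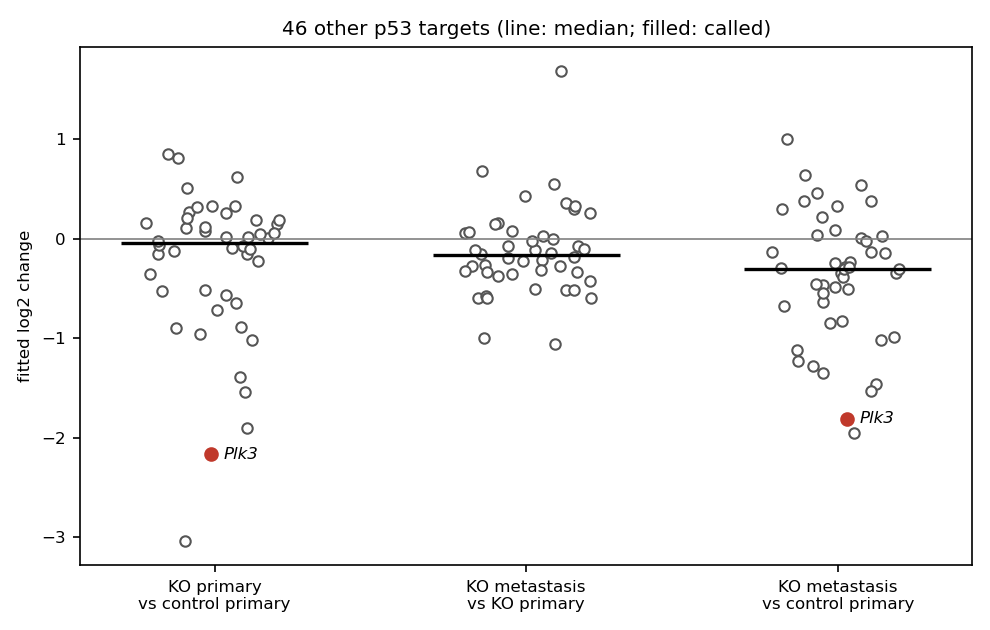
Fitted log2 differences (vertical axis) of 46 other p53 target genes, 1 point a gene, in the 3 comparisons; the black line is the median (-0.04, -0.17 and -0.30) and filled points passed the edgeR test. Plk3 is the filled gene against control in both KO groups. Of the 46 points 24, 32 and 33 lie below 0.

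Of 28 regulators and partners of p53, 1 rose and 1 fell in either KO group against control. Of all genes tested, 2.93% were called in KO primary tumours and 3.08% in KO metastases against control. Bcl2, an inhibitor of apoptosis, rose from 20.8 ± 3.80 CPM in controls to 37.3 ± 6.00 CPM in KO primary tumours (log2 difference 0.84, SE 0.156, edgeR adjusted p = 0.00924) and 35.6 ± 1.46 CPM in KO metastases (0.77, SE 0.156, adjusted p = 0.0150). Bcl2l1, the gene of the related inhibitor BCL-XL, fell from 157 ± 21.1 CPM to 104 ± 11.99 CPM (log2 difference -0.60, SE 0.124, adjusted p = 0.0179) and 107 ± 0.491 CPM (-0.55, SE 0.124, adjusted p = 0.0272). Neither gene overlapped between control and KO libraries. Bcl2 passed in all 23 alternatives between primary tumours and in 21 of 23 in KO metastases, where the call was lost without the libraries of highest receptor counts (adjusted p = 0.0650) and without the 3 controls with Xist counts (adjusted p = 0.0639). The Bcl2l1 call held in 14 of 23 and was lost without control primary 4, 6 or 7 or without KO primary 4, 6 or 7, with adjusted p-values of 0.0512 to 0.106 and log2 differences of -0.64 to -0.54. It was also lost without the 3 controls with Xist counts (adjusted p = 0.415), with no low-count filter (0.0676) and without the libraries of highest receptor counts (0.0530). In KO metastases it held in 10 of 23 and was lost without control primary 4, 6 or 7, KO primary 7 or any 1 metastasis (adjusted p = 0.0544 to 0.145), and in the other alternatives that ended it the adjusted p was 0.0533 to 0.577, highest without the 3 controls with Xist counts. Between KO metastases and KO primary tumours 0 regulators passed with any of the 3 tools and 0 had an unadjusted edgeR p below 0.05, with the smallest p-values for the ribosomal protein gene Rpl5 (0.42, SE 0.270) and the checkpoint kinase gene Chek2 (-0.20, SE 0.133).

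None of the 18 genes listed as lowered by p53 through p21 and the DREAM repressor complex was called by edgeR. In KO primary tumours 18 of 18 had a positive log2 difference from control (median 0.23), but 0 passed the edgeR test, 3 had an unadjusted p below 0.05, DESeq2 called 1 and limma voom 2. The checkpoint kinase gene Chek1 was at 56.3 ± 3.91 against 43.5 ± 6.42 CPM (edgeR adjusted p = 0.229). Of all genes tested, 54.4% were lower in KO primary tumours than in control and 53.4% lower in KO metastases than in control. An unadjusted edgeR p below 0.05 was found for 3020 and 3170 of 22265 genes in the same order. In KO metastases 17 of 18 were above control (median 0.20), with 0 calls by edgeR, 2 unadjusted p-values below 0.05, 1 call by DESeq2 and 4 by limma voom. The smallest p-values were those of Birc5, the survivin gene (236 ± 42.9 against 187 ± 11.6 CPM, edgeR adjusted p = 0.271), and Cdc20, an activator of the anaphase-promoting complex, at 420.2 ± 27.2 against 343 ± 32.4 CPM (adjusted p = 0.206). These genes belong to the cell cycle, are tied to each other in proliferating cells and were all measured in the same libraries, so the shared sign is a description.

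In the family of Btg2 and the CCR4-NOT deadenylase that BTG and TOB proteins bind, 1 of 13 genes passed. That call was between primary tumours, where 2.93% of all genes tested were called. Tob1, another antiproliferative gene of the family, fell from 216 ± 38.1 CPM in controls to 105 ± 16.0 CPM in KO primary tumours (log2 difference -1.03, SE 0.205, edgeR adjusted p = 0.0143), with no overlap. In KO metastases it was at 125 ± 38.7 CPM (-0.79, SE 0.203, adjusted p = 0.0531), and without control primary 3 or KO metastasis 7 that difference passed (adjusted p = 0.0290 and 0.0192). The call between primary tumours was lost without KO primary 3 (adjusted p = 0.0526) or KO primary 4 (adjusted p = 0.0802) and without the 3 controls with Xist counts (adjusted p = 0.234). The relatives Btg1 (log2 difference 0.06), Btg3 (-0.28) and Tob2 (0.09) did not pass with edgeR, and the deadenylase subunits did not either. Of the 13 genes DESeq2 called 1 and limma voom 2 between primary tumours, and 3 and 1 between KO metastases and control, where Tob1 passed with both (adjusted p = 0.00319 and 0.0217).

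The genes whose profile over the 13 libraries was most like that of Btg2 were taken from 10373 genes with a mean of at least 5 CPM, by Pearson's r of log2(CPM + 1). They were Myl9, a myosin light chain gene (r = 0.81, or 0.71 after removing group means), Socs2, a suppressor of cytokine signalling gene (0.80 and 0.51), Mfng, which encodes the Notch-modifying enzyme Manic fringe (0.80 and 0.45), the homeobox gene Uncx (0.80 and 0.36) and Mmd2 (0.79 and 0.62). The points share libraries, depth and group differences, and the r values are a ranking with no test. Socs2 had 69.7 ± 2.57 CPM in controls, 37.1 ± 1.88 CPM in KO primary tumours and 52.6 ± 17.6 CPM in KO metastases, and Uncx at 409 ± 69.0, 207 ± 27.8 and 336 ± 98.6 CPM in the same order. Between primary tumours Socs2, Mfng and Uncx passed the test (edgeR adjusted p = 0.0213, 0.0257 and 0.0157) and Myl9 and Mmd2 did not (adjusted p = 0.0790 and 0.255). The genes were picked in these same libraries by a profile that carries the Btg2 difference. Low values in KO primary tumours follow in part from that choice, and these calls add no support.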

How the data were processed

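RNA-seq gene counts were analysed for 13 libraries. The deposited table holds raw counts per gene symbol. The authors made it with the build mm10 and the tools STAR 2.4, HTSeq 0.6.1 and DESeq2, per the submitters' processing notes, which assign no roles. Strand setting and annotation release were not found in the sources. Symbols were matched to GENCODE M21 (GRCm38) for positions and exon lengths, and promoters came from RefSeq on GRCm38.p6.

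All 13 libraries were fitted in 1 model with the 3 groups as levels, in edgeR 4.0.16 (R 4.3.3). After filterByExpr (at least 10 counts in enough libraries, at least 15 in total) and TMM scaling, quasi-likelihood F tests were run, with Benjamini-Hochberg adjustment over the 22265 genes tested and a call at an adjusted p below 0.05. Standard errors were worked back from the F statistic, as the size of the fitted log2 difference divided by the square root of F. The 95% intervals follow from them with a t quantile and include the spread between libraries. The fit recovered known changes in counts simulated from its own means and spread. Those counts held no libraries that stand apart, so they cannot show how the test fares with such libraries. Alternatives were DESeq2 1.42.0, limma 3.58.1 (voom with quality weights), other scalings and filters, a replicate block, each library left out and libraries that stand apart left out. A block on the 8 KO libraries was added after the data were seen.

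All members are named. Of each pathway list, up to 4 called genes of smallest p in a comparison are named, or up to 2 where none was called. The 5 genes most like Btg2 in profile are added. The members and lists were chosen with earlier results of these data known. Of the listed genes Dglucy had no matching row, Cop1 was read as Rfwd2, and Sfn, Sco2 and Cd80 were not tested. Some genes that this rule takes are left out of the text.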

Additional observations from a re-analysis of the deposited data

Results flagged for a closer look

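In 4 of 30 combinations of a gene and a group, 1 library lay further from the rest of its group than Dixon's 95% limit allows, and each time this was control primary 3. Chance alone flags about 1 in 20 groups. Cdkn1a was at 128 CPM there and at 50.5 to 64.4 CPM in the other 4 controls. Bax was at 185 CPM against 90.9 to 111 CPM, and Bbc3 at 75.3 CPM against 38.1 to 47.9 CPM. Mdm2 was at 75.2 CPM against 119 to 133 CPM. This library also held 1752 CPM of receptor genes, against 11.9 to 19.5 CPM in the other controls, and the part of that in these levels was not tested.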

How the results depend on the processing

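Btg2 was past the threshold between primary tumours in 17 of 23 alternatives, with log2 differences of -1.15 to -0.74, and kept its direction in all of them. Its difference between KO metastases and KO primary tumours passed in 0 of 24 (0.47 to 0.99, smallest adjusted p = 0.0961). Of 630 values of the other 9 members, 1 passed (Trp53, given in the report) and 42 had another sign, none of which passed. Precision is limited by 4 or 5 libraries a group more than by depth, since each member drew at least 349 counts in each library.

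Same-numbered libraries of KO primary tumours and KO metastases deviated together with r of 0.064 to 0.53, and those of control and KO primary tumours with r of -0.39 to 0.12. Differently numbered libraries of KO primary tumours and KO metastases had r of -0.47 to 0.48. Whether the numbers mark shared mice is not labelled, so the main fit took no pairs and the blocks below are alternatives. With the replicate block, the Btg2 difference between primary tumours was -0.98 (adjusted p = 0.0849), which left 0 members called, and 0 genes were called between KO metastases and KO primary tumours. With the replicate block on the 8 KO libraries, 10 genes were called there and Btg2 was at 0.87 (adjusted p = 0.323). The replicate block also ended the Bcl2l1 call in KO metastases against control (-0.60, adjusted p = 0.0854).

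Genes called between primary tumours (653) numbered 1648 with DESeq2, 3267 with limma voom, 1427 without the 4 libraries of highest receptor counts and 138 without the 3 controls with Xist counts. Those called between KO metastases and control (685) numbered 1671, 3822, 1274 and 100 in that order. Between KO metastases and KO primary tumours (1 gene) there were 33 with DESeq2, 2 with limma voom, 2 with no low-count filter, 5 without the libraries of highest receptor counts, and 0 with unscaled totals, without the Xist controls or with only the groups compared. Leaving out 1 library gave 277 (without KO primary 4) to 1032 (without control primary 3), 0 to 2, and 369 (without KO metastasis 4) to 1199 (without control primary 3), respectively.

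Members called between primary tumours fell to 0 without the Xist controls and were 0 to 1 with 1 library left out, with Btg2 at -1.15 to -0.91. Between KO metastases and control, 1 member was called without the libraries of highest receptor counts. That fit kept only KO metastasis 3 and KO metastasis 4 as metastases. Other p53 targets called between primary tumours were 2 with unscaled totals, 5 with DESeq2, 16 with limma voom, 4 with a mean of at least 1 CPM, 3 without the libraries of highest receptor counts, 3 with only the groups compared and 1 to 3 with 1 library left out. Against control in KO metastases they were 2, 4, 11, 3 and 3 under the first 5 of these and 1 to 3 with 1 library left out.

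Signs that turned belonged to differences that did not pass. Without the Xist controls, Btg2 kept its negative sign between primary tumours (-0.74), while in KO metastases against control Btg2 turned to 0.12 and Mdm2 to 0.11. Without the libraries of highest receptor counts, Btg2 was at 0.061 and Bax at 0.049 in that comparison, Mdm2 at -0.023 and Zmat3 at -0.21 between primary tumours, and Cdkn1a at -0.13, Bbc3 at -0.12 and Phlda3 at -0.33 between KO metastases and KO primary tumours. Between primary tumours, unscaled totals gave Mdm2 -0.0084, Zmat3 -0.018 and Sesn2 -0.078, a mean of at least 1 CPM gave -0.0098, -0.023 and -0.070, and limma voom gave Mdm2 -0.063, Zmat3 -0.060 and Phlda3 0.089. Sesn2 was at -0.023 with RLE size factors, -0.023 with DESeq2 and -0.015 with only the groups compared. Limma voom also gave Trp53 -0.095 and Ccng1 0.047 between KO metastases and KO primary tumours, and Cdkn1a 0.019 and Phlda3 0.32 between KO metastases and control.

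With 1 library left out, the ranges that crossed 0 between primary tumours were -0.067 to 0.094 for Mdm2, -0.094 to 0.15 for Zmat3 and -0.12 to 0.11 for Sesn2. Between KO metastases and KO primary tumours they were -0.032 to 0.42 for Cdkn1a, -0.21 to 0.18 for Ccng1, -0.0036 to 0.23 for Bax and -0.048 to 0.11 for Bbc3. For Bax between KO metastases and control the range was -0.33 to 0.011. The cause of these shifts was not tested.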

Other observations

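Further genes of the p53 circuit, chosen after their values were seen, are given as values only. Cdkn2a, whose ARF product restrains MDM2, was at 3.50 ± 2.67 CPM (SD, n = 5) in control and 1.09 ± 0.478 CPM (n = 4) in KO primary tumours, a difference that did not pass (edgeR adjusted p = 0.130). Mdm4, the partner of MDM2, was at 101 ± 26.0 and 95.7 ± 11.1 CPM (adjusted p = 0.967). The p53 relative Trp63 was at 6.43 CPM in control primary 3 and at no more than 0.296 CPM in the other 4 controls, and at 0.136 to 3.11 CPM in KO primary tumours (adjusted p = 0.989).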
